A study of Sus scrofa with 6 samples.

Results

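The left atria of pigs with mitral regurgitation that received valsartan were compared with those of normal control pigs, by 4 of the 6 arrays of the study. The members are the 2 arrays titled MRV1 and MRV2 and the 2 titled NC1 and NC2, chosen by title alone, and every probe set other than the array's own controls, which makes 23999 of 24123. All 6 animals were male Lanyu miniature pigs, 18 months old at sampling, with 1 array for each animal and 2 animals in each group. NC animals were normal controls matched for age, and no operation or drug is recorded for them. MRV animals had a 2.8 mm hole made in the posterior leaflet of the mitral valve and were killed 12 months after that surgery. They were also given valsartan, which blocks the type I receptor of angiotensin II. The dose was 3.43 mg/kg/day and began 1 week ahead of the operation. MR animals, which had the same lesion and no valsartan, are given alongside. The comparison of MRV with NC asks what still differs from normal atria under treatment. Lesion, surgery and drug enter it together and cannot be told apart.

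Mitral regurgitation sends blood back from the left ventricle into the left atrium, so that the atrial wall is stretched. Stretched heart muscle secretes natriuretic peptides, takes up fetal and slow muscle isoforms and alters its fuel use, and angiotensin II acting on its type I receptor promotes growth of muscle cells and deposition of matrix. Valsartan occupies that receptor. The RNA of an atrial sample comes from muscle cells together with fibroblasts, endothelium, smooth muscle, fat, nerves and leukocytes.

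Values are intensities, the brightness of a probe set on a linear scale as the authors normalized it, and differences are of log2(intensity + 16), which understates those of dim probe sets. Array medians lay between 90.2 and 93.4. The atrial myosin light chain gene MYL4, picked after its values were seen, was bright on all 4 arrays, at 21828 and 21842 (NC) against 21631 and 21034 (MRV). The ventricular myosin light chain gene MYL2 read 203 and 325 (NC) against 152 and 954 (MRV). Of 7 measured markers of atrial heart muscle, 3 read higher and 3 lower on both MRV arrays than on both NC arrays (42.9% each). Over all 5408 genes the shares were 13.3% and 21.8%. The 2 NC arrays stood further apart than 3 of the 4 pairs of an NC and an MRV array. The median absolute log2 difference over 14400 tested probe sets was 0.179 between NC1 and NC2, 0.132 between MRV1 and MRV2, and 0.118 between NC2 and MRV2, the smallest of all 15 pairs of arrays. NC1 lay 0.172 from MRV1 and 0.184 from MRV2, the largest. For many of the lists and genes that rest on NC1, the difference without it is given as well. The 3' actin control of the array read 7859 and 10977 in MRV against 13511 and 13135 in NC. The ratio of its 3' to its 5' signal, a measure of RNA degradation, was 2.30 and 1.87 against 1.61 and 1.91, while a second actin control gave 6.46 and 11.6 against 9.72 and 6.96. The 28S ribosomal RNA control read 341 and 559 in MRV and 117 and 468 in NC. The part of these controls in the results was not tested beyond the fits that hold the actin ratio or the 28S signal as a covariate.

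**Figure D1:**
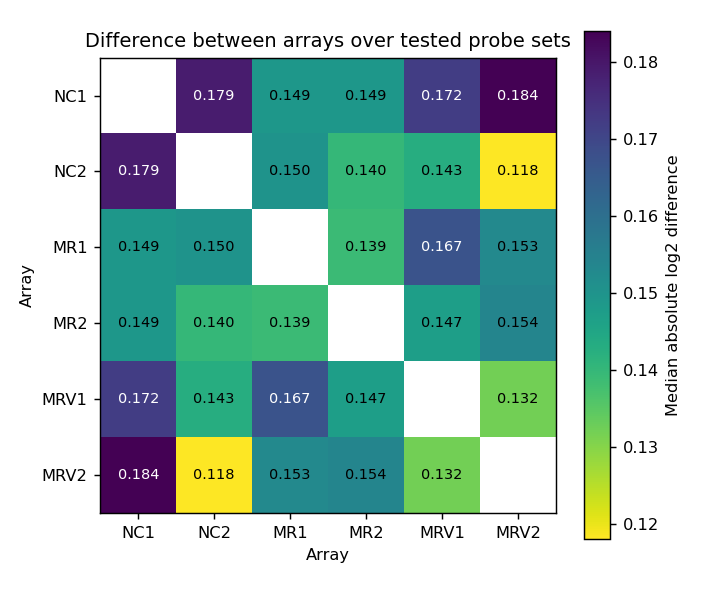
Median absolute log2 difference between each pair of the 6 left atrial arrays over 14400 probe sets, printed in each cell, with darker cells further apart. NC2 and MRV2 differ least, at 0.118, and NC1 and MRV2 most, at 0.184.

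The treated atria differed most clearly from control in a small set of genes, described first by size because no difference passed the test. ASNS, FABP7, ATF3 and F3 read far lower on both MRV arrays than on both NC arrays, with log2 differences of -1.79, -2.02, -3.06 and -1.42. KIAA1671 and RUBCNL read higher, by 1.71 and 1.20. No probe set passed the threshold of an adjusted p of 0.05 with limma (0 of 14400, 0.0%). The smallest adjusted p was 0.0649, shared by ASNS and by a probe set with no gene name. At an unadjusted limma p under 0.05 there were 762 probe sets, 5.29% of those tested, 234 higher (1.62%) and 528 lower (3.67%) in MRV, where the threshold itself admits 5%. By size, 86 probe sets (0.597%) differed by 2-fold or more while the 2 groups' arrays did not overlap, 29 higher (0.201%) and 57 lower (0.396%) in MRV. An exact two-sided permutation test of 2 arrays against 2 cannot go below p = 0.333, so these counts are descriptions. Without NC1 the unadjusted count was 652 (301 higher, 351 lower) and the 2-fold count 97 (38 higher, 59 lower). Without NC2 they were 2063 (950 higher, 1113 lower) and 470 (298 higher, 172 lower), so that the balance of the 2-fold count turned towards higher probe sets. With 1 array for each animal, the p-values measure the spread between animals and between arrays together.

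**Figure D2:**
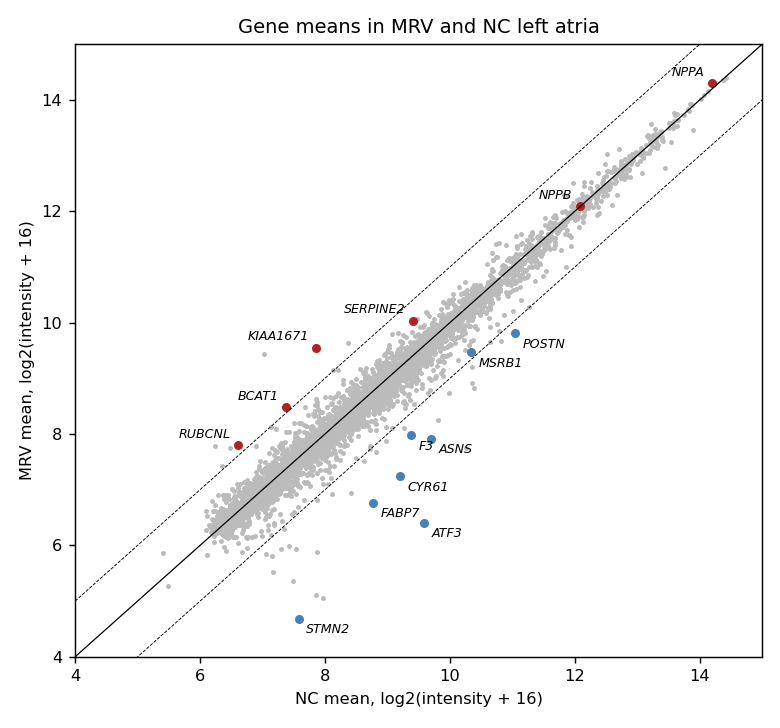
Mean of the 2 MRV arrays against the mean of the 2 NC arrays for 5408 genes, both as log2(intensity + 16), with the line of equality and dashed lines at a difference of 1 on either side. ASNS, FABP7, ATF3, F3, CYR61 and STMN2 lie below the lower dashed line, KIAA1671, RUBCNL and BCAT1 above the upper one, and the natriuretic peptide genes NPPA and NPPB close to the line of equality.

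The first group of named genes was lower than control in the treated atria and read low in untreated regurgitation too. The MR values use the same NC arrays for reference and are no separate evidence. ASNS, the asparagine synthetase, read 779 and 852 (NC), 193 and 173 (MR) and 214 and 237 (MRV). Both MRV arrays lay far below both NC arrays, and the log2 difference was -1.79 (SE 0.12, limma adjusted p = 0.0649). It ranged from -1.85 to -1.60 over all alternatives tried, with limma adjusted p-values from 0.0555 to 0.99. Between MRV and MR, ASNS differed by 0.28 (SE 0.12, limma adjusted p = 0.702). FABP7, a fatty acid binding protein best known from glia, read 444 and 399 (NC), 43.3 and 105 (MR) and 78.6 and 107 (MRV). Its difference in log2 was -2.02 (SE 0.34, limma adjusted p = 0.709), with -1.95 without NC1. NTF3, the neurotrophin-3 that sustains sensory and sympathetic nerve cells, read 183 and 164 (NC), 65.7 and 80.7 (MR) and 98.3 and 76.3 (MRV). Its log2 difference was -0.88 (SE 0.16). MSRB1, a selenoprotein that reduces oxidized methionine, read 1245 and 1312 (NC), 848 and 890.1 (MR) and 735 and 651 (MRV). The difference from NC was -0.87 in log2 (SE 0.11), and MRV lay below MR as well. OXNAD1 read 460.4 and 472 (NC), 335 and 367 (MR) and 304 and 287 (MRV), again without overlap between MRV and NC. Lack of overlap was a condition for naming a gene by its p or size, so it is no separate support for such genes. For every named gene except ASNS the limma adjusted p of MRV minus NC was at least 0.704, and no named gene passed the threshold under any alternative.

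The second group was lower than control under valsartan while in the untreated lesion these genes read near or above the control level. F3, the tissue factor that starts coagulation, read 578 and 723 (NC), 1099 and 882 (MR) and 189 and 284 (MRV). The log2 difference of MRV from NC was -1.42 (SE 0.23), and from MR it was -2.01 (SE 0.23, limma adjusted p = 0.317), the arrays of MRV overlapping with neither group. SERPINB2, an inhibitor of the plasminogen activators that dissolve clots, read 1095 and 1395 (NC), 1611 and 1465 (MR) and 753 and 768 (MRV). Its log2 difference from NC was -0.69 (SE 0.14). PROCR, the endothelial receptor for protein C, is no member of this group but of the same coagulation system. It read 2398 and 1184 (NC), 1100.1 and 1137 (MR) and 733 and 855 (MRV), so that MR was below control too. It was picked after its values were seen, and NC1 was the high array: without NC1 its difference of -1.08 became -0.57.

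Among muscle and cytoskeletal genes, CNN1, a calponin that binds actin in smooth muscle, read 976 and 892 (NC), 902 and 806 (MR) and 489.5 and 527 (MRV). MAP1A, a microtubule-associated protein, read 732 and 611 (NC), 789 and 766 (MR) and 390.0 and 324 (MRV). XIRP1, which binds actin at the junctions between heart muscle cells, read 1782 and 1915 (NC), 1428 and 1557 (MR) and 1090.3 and 1132 (MRV), with MR between the other groups. The log2 differences from NC were -0.86 (SE 0.12) for CNN1, -0.88 (SE 0.14) for MAP1A and -0.72 (SE 0.11) for XIRP1. A dimmer MAP1A probe set differed by 0.079, so the probe sets of this gene disagree. SELENOW, the selenoprotein W of muscle, read 1744 and 1684 (NC), 2149.7 and 1719 (MR) and 972 and 999.9 (MRV), 1.73-fold lower than control on the scale used. STBD1, which tethers glycogen to membranes, read 633 and 583 (NC), 619.8 and 646 (MR) and 297 and 381 (MRV), and its other probe set differed by -0.47 from NC. STC1, a secreted glycoprotein among the atrial muscle markers, read 236 and 229.8 (NC), 243 and 373 (MR) and 126 and 116 (MRV), so that MRV lay below all other arrays. STC1, and CITED1 and SPP1, a transcriptional co-regulator and osteopontin, were picked after their values were seen. CITED1 read 394 and 476 (NC), 495 and 549.5 (MR) and 133 and 245 (MRV). SPP1 read 199.7 and 113 (NC), 248 and 138 (MR) and 32.2 and 63.0 (MRV). In all of CNN1, MAP1A, SELENOW, STBD1, STC1, CITED1 and SPP1 the MRV arrays overlapped with neither NC nor MR, and the limma adjusted p-values for MRV minus MR lay between 0.317 and 0.502.

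**Figure D3:**
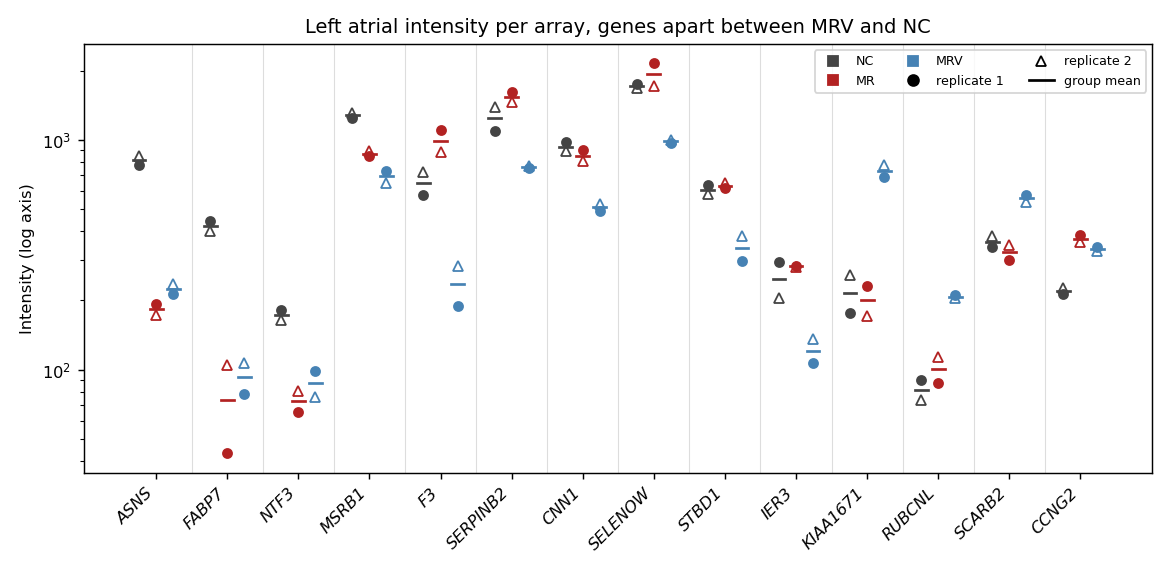
Intensity of 14 genes on each of the 6 arrays, on a log axis, with filled circles for replicate 1, open triangles for replicate 2 and a bar at each group mean. ASNS, FABP7, NTF3 and MSRB1 are below NC in both lesioned groups, F3 to IER3 are low in MRV alone, and KIAA1671, RUBCNL and SCARB2 are high in MRV alone.

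The next genes were higher in the treated atria. KIAA1671, a gene with little known of its function, read 176 and 257 (NC), 231 and 171 (MR) and 688 and 781 (MRV). Its log2 difference from NC was 1.71 (SE 0.22, limma adjusted p = 0.704) and from MR 1.80 (SE 0.22, limma adjusted p = 0.317). RUBCNL, which promotes the maturation of autophagosomes, read 89.9 and 73.4 (NC), 87.3 and 113 (MR) and 211 and 205 (MRV), a log2 difference from NC of 1.20 (SE 0.15). SCARB2, a membrane protein of the lysosome, read 342 and 381 (NC), 301 and 349.7 (MR) and 574 and 539 (MRV), with 0.60 (SE 0.12) from NC and 0.23 for its other probe set. For KIAA1671, RUBCNL and SCARB2 the MRV arrays lay above all other arrays, NC and MR included. BCAT1, the cytosolic enzyme that transaminates branched-chain amino acids, read 187 and 112 (NC), 137 and 62.9 (MR) and 387 and 299 (MRV), and its other probe set differed by 0.70 from NC.

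Other genes were above control in both lesioned groups. CCNG2, the growth-restraining cyclin G2, read 212 and 227 (NC), 384 and 360.0 (MR) and 340.4 and 328 (MRV). CCNG2 differed from NC by 0.57 in log2 (SE 0.10). ZNF232, a zinc finger protein gene, read 62.0 and 61.9 (NC), 92.0 and 108 (MR) and 109 and 99.0 (MRV). SERPINE2, an inhibitor of thrombin and plasminogen activators, read 678 and 648 (NC), 1006 and 1027 (MR) and 811 and 1252 (MRV). For SERPINE2, MRV1 lay nearer to control than MRV2. The long non-coding RNA gene LOC100522115 read 94.2 and 155 (NC), 237 and 392 (MR) and 271 and 254 (MRV). ACTB, cytoplasmic beta-actin, read 1565 and 1649.9 (NC), 1878 and 2115 (MR) and 2236 and 2583 (MRV), but its other probe set differed by -0.17 from NC and the 3' actin control given above was lower in MRV. FBXL4, a mitochondrial F-box protein gene, read 109 and 107 (NC) against 190.2 and 143 (MRV). Further genes were above control in MRV with MR in between or overlapping NC. The cap-binding protein gene NCBP2 read 142 and 211 (NC) against 252 and 301 (MRV), HNRNPU read 113 and 169.7 (NC) against 205 and 221 (MRV), and the nuclear receptor gene NR4A2 read 56.2 and 49.2 (NC) against 87.3 and 77.0 (MRV). MRV and NC did not overlap in any of these 3, and the log2 differences were 0.62 for NCBP2, 0.56 for HNRNPU and 0.52 for NR4A2. Lack of overlap and a log2 difference of at least 0.5 were conditions for naming these 3. NR4A2 also reached the mean of 61.4 needed for testing only through its MRV arrays.

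Some of the largest differences rested on 1 animal. The long non-coding RNA gene LOC100523870 read 55.1 and 174 (NC) against 1128 and 224 (MRV), so that its log2 difference of 2.17 (SE 0.80) comes mostly from MRV1. DEUP1, a gene of centriole formation in ciliated cells, read 60.6 and 59.2 (NC) against 69.0 and 341 (MRV), the high array being MRV2. ZMAT3, a p53-induced zinc finger gene, read 18.7 and 112 (NC) against 131 and 182 (MRV), and DCBLD2, a membrane receptor gene, read 128 and 464 (NC) against 495 and 475 (MRV). Both had a low value on NC1: without it their differences of 1.35 and 0.93 became 0.41 and 0.060. LOC100510975 read 700.1 and 1719 (NC), 921 and 197 (MR) and 186 and 213 (MRV), and its other probe set differed by -2.25 from NC. Here both MRV arrays were low together with MR2.

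Of the 86 probe sets at least 2-fold apart, 45 had no single gene symbol, 21 of them higher and 24 lower in MRV. The one with the smallest p read 93.5 and 86.7 (NC), 236 and 228 (MR) and 337 and 410.3 (MRV). It was higher than in NC by 1.87 in log2 (SE 0.13, limma adjusted p = 0.0649). Another read 387 and 607 (NC), 747 and 847 (MR) and 133 and 218 (MRV), a log2 difference of -1.42 (SE 0.29), so that it followed the order of the groups seen for F3. The other 41 probe sets stood for 39 genes. In a few of them the probe sets of an abundant gene disagreed. B2M, the light chain of class I antigen-presenting molecules, read 2157 and 9441 (NC) against 6814 and 9738 (MRV) on its brightest probe set. Another of its probe sets read 882 and 6018 (NC) against 380.4 and 743 (MRV), a log2 difference of -2.09, and 7 more differed by -0.25 to 0.061. ANKRD1, a stretch-induced gene of heart muscle, read 9863 and 14562 (NC) against 13884 and 13841 (MRV) on its bright probe set and 1056 and 221 (NC) against 151 and 133 (MRV) on a dim one. OAZ1, which restrains polyamine synthesis, differed by -0.13 on its bright probe set and by -1.81 on another. The latter read 1253 and 8597.5 (NC) against 690.3 and 1239 (MRV). Both OAZ1 probe sets were lower without overlap, so they disagreed in size and not in direction. No direction is given for B2M or ANKRD1. ANKRD1 and OAZ1 were picked after the values were seen.

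Among load markers of heart muscle, NPPB was near control in MRV, NPPA was slightly above it and TNNT1 and MYL2 had no settled position. NPPB, the B-type natriuretic peptide secreted by stretched muscle, read 4509.6 and 4095 (NC), 8081 and 8253 (MR) and 4076 and 4644 (MRV). MRV and NC arrays overlapped, and differed in log2 by 0.018 (SE 0.12, limma adjusted p = 0.992). NPPA, the atrial natriuretic peptide, read 18414 and 18864 (NC) against 20169.7 and 20039 (MRV), a difference of 0.11 (SE 0.098), and both MRV arrays lay above the others. TNNT1, slow skeletal troponin T, read 497 and 996 (NC), 2421 and 2724 (MR) and 323 and 957 (MRV). MYL2, named above, read 203 and 325 (NC), 10693 and 2318 (MR) and 152 and 954 (MRV). In both, MRV1 lay below control and MRV2 near or above its upper end, so the spread within MRV (log2 SE 0.54 and 1.01 for the differences) leaves their position relative to NC undetermined. KCNE1, a subunit of the slow delayed rectifier potassium channel, read 264 and 318 (NC), 653 and 726 (MR) and 279 and 505 (MRV), with MRV2 above both NC arrays and MRV1 between them. The calcium pump gene ATP2A2 read 15010.4 and 15002 (NC) against 15207 and 15277 (MRV), sarcolipin (SLN) read 8660.4 and 10033 (NC) against 8949 and 8529.8 (MRV), and the connexin 43 gene GJA1 read 6088 and 5378 (NC) against 6939.5 and 5738 (MRV), all with log2 differences from NC between -0.093 and 0.14. A dim ATP2A2 probe set disagreed, at 117 and 154 (NC) against 83.6 and 56.3 (MRV), a difference of -0.82, while its other two probe sets differed by 0.077 and 0.14. GJA5, the atrial connexin 40, read 438 and 345 (NC) against 268 and 291 (MRV), without overlap.

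In the list of genes induced by load and stretch, 2 of 16 measured genes were higher and 6 lower in MRV without overlap. Over all 5408 genes these shares were 13.3% and 21.8%, against 12.5% and 37.5% here, and the same 2 shares are the background of each list that follows. The list's median log2 difference was -0.066, beside -0.023 for all genes, and 0 of 16 passed the adjusted threshold. FHL1, a LIM-domain protein of the sarcomere, read 9944 and 12171 (NC), 13581 and 13183 (MR) and 6866 and 7073 (MRV), with MRV below all other arrays. Its log2 difference from NC was -0.66 (SE 0.13) and from MR -0.94 (SE 0.13, limma adjusted p = 0.317). NEBL, a nebulin-like protein of the Z-disc, went the other way and read 229 and 264 (NC), 449.7 and 481 (MR) and 355 and 331 (MRV), so that MRV lay above NC and below MR. The list was mixed, with NPPB near control, FHL1 and XIRP1 below it and NEBL above it.

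Part of the genes of rapid, stress-induced transcription were lower in MRV. Of 20 measured immediate early genes, which a stimulus switches on within minutes, 10 were lower without overlap (50.0%, against 21.8% of all genes) and 1, NR4A2, was higher. NR4A2 reached the mean of 61.4 needed for testing only through its MRV arrays. The median was -0.51, beside -0.46 for MR minus NC, so the low median was not particular to the treated atria. Of the 20 genes, 8 had an unadjusted limma p under 0.05 in MRV minus NC, against 5.62% of all genes. None passed the adjusted threshold. The other members overlapped, with JUN at 0.52, BTG2 at 0.32 and KLF10 at 0.28 above control on average. ATF3, a repressor induced by many stresses, read 1099.5 and 409 (NC), 265 and 357 (MR) and 89.1 and 49.0 (MRV). Its log2 difference was -3.06 (SE 0.48), with -2.36 without NC1. IER3, an early gene linked to cell survival, read 293 and 205 (NC), 283 and 279 (MR) and 106 and 135 (MRV), with MRV below all other arrays. CYR61, a matrix-associated protein induced by stretch, read 864 and 285 (NC), 435 and 269 (MR) and 154 and 116 (MRV). NC1 was the high array, and without it the log2 difference of -1.78 became -1.01. ABRA, an actin-binding activator of serum response factor in muscle, was picked after its values were seen and read 1636 and 946 (NC), 777 and 808 (MR) and 531 and 399.6 (MRV). Its log2 difference of -1.40 became -1.01 without NC1. Without NC1 the median of the list was -0.34, and without NC2 -0.63. It was -0.52 with quantile normalization.

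The list of genes that ATF4 induces when amino acids are short holds ASNS and ATF3. Of its 21 measured genes, 9 were lower without overlap (42.9%, against 21.8% of all genes) and 2 higher (9.52%, against 13.3%), with a median of -0.077. ATF4 itself, the transcription factor that drives them, read 1913 and 2295 (NC), 2561 and 2305 (MR) and 1776 and 1578 (MRV). CEBPG, its dimer partner, read 128 and 103 (NC), 92.5 and 107 (MR) and 89.7 and 83.1 (MRV). The serine synthesis genes PSAT1 and PSPH read 571 and 296 (NC) against 217 and 288 (MRV), and 119 and 65.6 (NC) against 46.3 and 64.3 (MRV). In both, NC1 was the high array and NC2 lay close to MRV2. After ASNS and ATF3, PSAT1 had the next lowest difference of the list, -0.68, and the list's median was near that of all genes. Among 17 chaperones and sensors of the endoplasmic reticulum, 9 were lower without overlap (52.9%, against 21.8% of all genes) and 3 higher, with a median of -0.070. FKBP11, a folding enzyme of secretory cells, read 722 and 939 (NC), 423 and 516 (MR) and 563 and 543 (MRV). MANF, a protein released under stress of that compartment, read 1016 and 1024 in NC and 853 and 815 in MRV, while the regulator gene XBP1 was higher, at 1201 and 1388 in NC and 1468 and 1631 in MRV. With quantile normalization 7 of the 17 were lower without overlap, against 19.6% of all genes. The endoplasmic reticulum list and the metabolic and antioxidant lists below, with their leading genes, were picked after the counts had been seen.

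In lists of energy metabolism the share of genes lower without overlap was above that of all genes, by small differences and with no gene past the adjusted threshold. Of 40 subunits of the respiratory chain and ATP synthase, 19 were lower without overlap (47.5%, against 21.8% of all genes) and 0 higher. The median was only -0.059, and the single differences ran from -0.23 to 0.17. None had an unadjusted p under 0.05. NDUFB5, a subunit of complex I, read 4611 and 4358 (NC), 4544 and 4022 (MR) and 3725 and 3891 (MRV). COX7A2, a subunit of cytochrome oxidase, read 4773 and 4267 (NC), 4682 and 4498 (MR) and 3606 and 4137 (MRV). Both were lowest in MRV1, and the MRV arrays lay below all others. Centring each array on its median gave 23 lower (57.5%, against 23.9% of all genes) and 0 higher (against 10.9%). Quantile normalization gave 11 lower (27.5%, against 19.6% of all genes) and 0 higher (against 15.6%), so the count moves by over 1.5 times with the scaling. Without NC1, 34 of 40 were lower in both MRV arrays than in NC2, against 33.5% of all genes. Without NC2, 21 (52.5%) were lower and 8 higher in both MRV arrays than in NC1, where 48.1% of all genes were lower and 1514 of 5408 higher.

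Of 22 genes of the citric acid cycle, 9 were lower without overlap (40.9%, against 21.8% of all genes) and 1 higher (4.55%, against 13.3%), with a median of -0.12. With quantile normalization 7 were lower (31.8%, against 19.6%) and 2 higher. IDH3A, a subunit of the NAD-dependent isocitrate dehydrogenase, read 2802 and 2719 (NC), 3194 and 2652 (MR) and 2036 and 2163 (MRV). Its log2 difference from NC was -0.39 (SE 0.13), with -0.36 for its other probe set, and the subunit gene IDH3B differed by -0.23. Without NC1 the median of this list was -0.039. Of 30 genes that take up or oxidize fatty acids, 11 were lower (36.7%, against 21.8%) and 2 higher, with a median of -0.11 and of -0.14 without NC1. With quantile normalization 7 were lower (23.3%) and 4 higher, near the shares of all genes, 19.6% and 15.6%. RXRG, a retinoid receptor that pairs with lipid-sensing receptors, read 163 and 149.8 (NC), 113 and 99.2 (MR) and 119 and 97.8 (MRV). ACADVL, the first enzyme of long-chain fatty acid oxidation, read 1965 and 2198 (NC), 1794 and 1709 (MR) and 1665 and 1639 (MRV), but its other probe set differed by -0.006. FABP3, the fatty acid carrier of heart muscle, read 5833 and 6457 (NC), 6157 and 5008 (MR) and 3913 and 4915 (MRV). CPT1B, which admits fatty acids to the mitochondrion, read 1222 and 1355 (NC), 938 and 885 (MR) and 1183 and 1164 (MRV), so that MRV lay between MR and NC and nearer to NC.

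Of 23 genes of glucose use and glycogen, 10 were lower without overlap (43.5%, against 21.8% of all genes) and 0 higher, with a median of -0.14. The counts were 10 and 0 under both other scalings as well. Of all genes, 23.9% were lower and 10.9% higher with median centring, and 19.6% and 15.6% with quantile normalization. The list's median without NC1 was -0.060. The leading genes were those of glycogen. PYGM, the muscle phosphorylase that releases glucose from glycogen, read 3035 and 2651 (NC), 2024 and 1811 (MR) and 1877 and 1753 (MRV). Its log2 difference was -0.64 (SE 0.12), with -0.27, -0.10 and -0.51 for its other probe sets. PGM1, which converts the released sugar phosphate, read 2638 and 2569 (NC), 2229 and 2016 (MR) and 2091 and 1999 (MRV). STBD1, given above, was lower than control in MRV alone, while PYGM and PGM1 read as low in MR.

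Cytosolic ribosomal protein genes went the other way. Of 51 measured, 16 were higher without overlap (31.4%, against 13.3% of all genes) and 1 lower, with a median of 0.058. RPL6 read 7706 and 7600.4 (NC), 7884 and 8121 (MR) and 8480.3 and 8263 (MRV), and RPL9 read 9304 and 9865 (NC), 10439 and 10734 (MR) and 10457 and 10386 (MRV). For both of these genes a dim second probe set differed from NC by -0.20 and -0.15. RPL14 read 6622 and 5042 (NC) against 7153 and 6229.9 (MRV), with overlap. With each array centred on its median the counts were 7 higher and 0 lower, where 10.9% of all genes were higher. With quantile normalization they were 15 higher and 0 lower, where 15.6% of all genes were higher. Against NC2 alone 44 of 51 were higher in both MRV arrays (34.6% of all genes), and against NC1 alone 18 were higher and 19 lower (37.3%), where 1514 of all 5408 genes were higher and 48.1% lower. The median was 0.11 without NC1 and -0.001 without NC2.

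Of 27 antioxidant genes, 7 were higher (25.9%, against 13.3% of all genes) and 6 lower (22.2%, near the 21.8% of all genes) without overlap. The median was -0.044, and 6 of the 27 had an unadjusted limma p under 0.05, against 5.62% of all genes. Its selenoproteins were divided. MSRB1 and SELENOW were the lowest members. GPX4, which removes lipid peroxides from membranes, read 2503 and 2536 (NC), 2897 and 3261 (MR) and 3145 and 3173 (MRV). GPX3, the secreted glutathione peroxidase, read 4135 and 3265 (NC), 3712 and 3075 (MR) and 4759 and 5096 (MRV). NQO1, a quinone reductase, read 483 and 461 (NC), 603 and 669.8 (MR) and 596 and 603 (MRV), and PRDX6, a peroxiredoxin, read 4723 and 5945 (NC), 3965 and 4282 (MR) and 4094 and 3887 (MRV). The values of GPX4, NQO1 and PRDX6 in MRV were close to those in MR, whereas GPX3 was higher in MRV than on any other array.

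Several markers of fat cells and nerves were lower in MRV, and NC1 carried much of both. Of 10 measured fat cell markers, 6 were lower without overlap, against 21.8% of all genes, and 0 higher, with a median of -0.65. The list holds 18 genes. The summed intensity of the measured ones was 6441 and 4853 (NC), 5033 and 4421 (MR) and 3530 and 3282 (MRV). FABP4, the fatty acid carrier of fat cells, read 2911 and 1997 (NC), 1529 and 2093 (MR) and 1671 and 791 (MRV). GPD1, which makes glycerol phosphate, read 210.0 and 323 (NC), 292 and 227 (MR) and 167 and 145 (MRV). SCD, the stearoyl-CoA desaturase, read 653 and 323 (NC), 325 and 356 (MR) and 295 and 234 (MRV), with NC1 as the high array. Without NC1 its log2 difference of -0.77 became -0.28. The median of the list was -0.27 without NC1. CA3, a carbonic anhydrase of fat and muscle that is in no list, read 363 and 72.0 in NC and 44.2 and 41.7 in MRV. Its log2 difference of -1.63 became -0.58 without NC1, and it passed the intensity filter of 61.4 only through NC1. In bulk RNA, fewer cells of a type and less RNA per cell cannot be told apart.

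Of 6 measured Schwann cell and neuron markers, 3 were lower without overlap (50.0%, against 21.8% of all genes) and 0 higher. They were STMN2, GAP43 and CRYAB, a small heat shock protein that is also abundant in heart muscle and stands in the load list too. CRYAB read 10854 and 10854.5 (NC) against 10098.5 and 9406 (MRV). The list had a median of -0.54 and of -0.18 without NC1. STMN2, a tubulin regulator of growing axons, read 331 and 20.9 (NC), 49.2 and 73.1 (MR) and 9.3 and 10 (MRV). SNAP25, a protein of synaptic vesicle fusion, read 428 and 39.3 (NC), 54.8 and 113 (MR) and 16.8 and 17.8 (MRV). GAP43, of growing axons, read 205 and 48.0 (NC), 68.3 and 78.5 (MR) and 43.3 and 36.4 (MRV). NC1 stood far above all other arrays for these genes. Further genes of nerve cells, picked after their values were seen, had the same pattern: NEFL, a neurofilament, read 293 and 33.8 (NC), 51.6 and 94.5 (MR) and 23.1 and 27.0 (MRV), and SYT1, a synaptic vesicle calcium sensor, read 206 and 48.1 (NC), 61.7 and 95.0 (MR) and 24.9 and 34.5 (MRV). Against NC2 alone the differences were -0.53 for STMN2, -0.73 for SNAP25, -0.20 for GAP43, -0.28 for NEFL and -0.50 for SYT1, each with both MRV arrays below NC2. These genes reached the mean of 61.4 needed for testing only through NC1. Lack of overlap was also a condition for naming STMN2 and SNAP25 by size. Their values against NC2 are therefore a description and no separate support. STMN2 and GAP43 also enter the list's count and median. UCHL1, an abundant neuronal deubiquitinase, went against the high reading on NC1. It read 1122 and 2384 (NC), lower on NC1, and 633 and 1186 (MRV). The glial genes S100B and SOX10 read 536 and 482 (NC) against 391 and 519 (MRV), and 55.3 and 66.9 (NC) against 60.7 and 78.4 (MRV), with overlap. FABP7 and NTF3, by contrast, read nearly as high on NC2 as on NC1. The summed intensity of all 6 markers was 13103 and 13856 in NC and 11236 and 11236 in MRV, most of it from CRYAB, so that this sum is no measure of nerve. The part of nerve cell RNA in the other results was not tested.

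**Figure D4:**
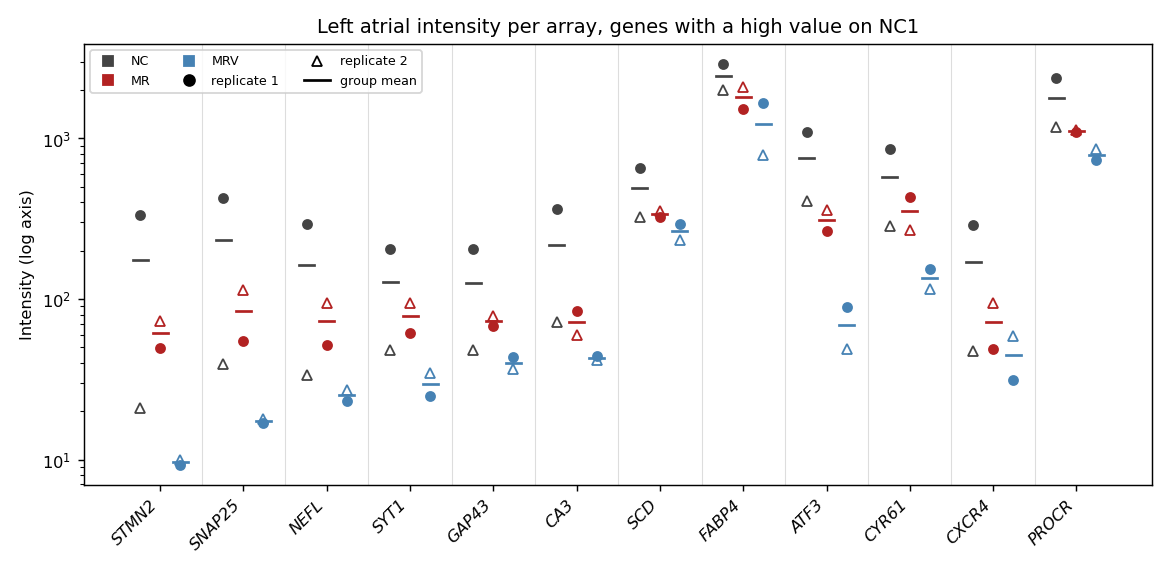
Intensity of 12 genes that read higher on NC1 than on NC2, for each of the 6 arrays on a log axis, with filled circles for replicate 1, open triangles for replicate 2 and bars at the group means. The nerve cell genes STMN2, SNAP25, NEFL, SYT1 and GAP43 stand out on NC1, and apart from CXCR4 both MRV arrays lie below both NC arrays.

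Other cell types gave small or mixed shifts. Of 7 smooth muscle markers, 2 were lower and 1 higher without overlap, with a median of -0.24 that became 0.032 without NC1. Beside CNN1, TAGLN, a smooth muscle actin-binding protein, read 991 and 833 (NC), 966 and 942 (MR) and 663 and 771 (MRV), while ACTA2, smooth muscle actin, read 3016 and 2191 (NC) against 2058 and 2311 (MRV). Of 7 macrophage markers, 1 was lower, MARCO, a scavenger receptor, at 141 and 153 (NC) against 128 and 116 (MRV), and 1 higher, the antibody receptor FCGR3A, at 253 and 165 (NC) against 255 and 264 (MRV). The scavenger receptor gene CD163 read 291 and 244 (NC) against 121 and 325 (MRV), and its other probe set differed by -0.57 without overlap. The median turned from -0.13 to 0.31 without NC1. Of 12 endothelial markers 1 was lower and 0 higher, and of 8 fibroblast markers 0 were lower or higher without overlap. Neutrophil, mast cell and mesothelial markers had 0 measured genes, so nothing is known of those cells here.

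Deposition of matrix is among the effects of angiotensin II in heart tissue. In the list of collagens and fibrous matrix genes, 5 of 20 were lower without overlap (25.0%, near the 21.8% of all genes) and 0 higher. Without NC1 the count turned to 12 higher and 6 lower of 20, where 34.6% of all genes were higher and 33.5% lower. Without NC2 it was 1 higher and 14 lower, where 1514 of all 5408 genes were higher and 48.1% lower. The list had a median of -0.082 that became 0.11 without NC1 and -0.41 without NC2. THBS1, the thrombospondin that activates TGF-beta, read 823 and 746 (NC), 396 and 571 (MR) and 353 and 468 (MRV), with -0.46 for its other probe set. POSTN, the periostin of scarring fibroblasts, read 1932 and 2259 (NC), 1676 and 1409.6 (MR) and 462 and 1301 (MRV), so MRV1 was much lower than MRV2 and both were below all other arrays. COL6A3, a chain of collagen VI, read 2555 and 1528 (NC), 1158 and 1705 (MR) and 1073 and 1267 (MRV). NC1 was the high array, and without it the log2 difference of -0.753 became -0.385. COL1A2, a chain of fibrillar collagen I, read 206 and 221 (NC), 230.4 and 189 (MR) and 197 and 247 (MRV), with overlap throughout. Its direction reversed without NC1.

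Of 16 genes of TGF-beta signalling and fibroblast activation, 2 were higher and 2 lower without overlap (12.5% each), with a median of -0.050. TGIF1, a repressor of SMAD-driven transcription, read 160.3 and 124 (NC) against 208 and 177 (MRV), and the endothelin receptor gene EDNRB read 93.7 and 101 (NC) against 121 and 115 (MRV). Of 14 matrix proteases and inhibitors, 2 were higher and 2 lower (14.3% each), with a median of 0.078. SERPINB2 and SERPINE2, described above, led it in opposite directions, and the urokinase gene PLAU read 95.5 and 111 (NC) against 128 and 119 (MRV).

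In the renin-angiotensin list, 1 of 6 measured genes differed without overlap. AGTR1, the type I receptor that valsartan blocks, read 599 and 588 (NC), 352 and 518 (MR) and 469 and 414 (MRV). Its log2 difference from NC was -0.42 (SE 0.19, limma adjusted p = 0.903), and from MR it differed by 0.043 (SE 0.19). AGT, the angiotensinogen from which angiotensin is cut, read 4209 and 1803 (NC), 1887 and 1097 (MR) and 2434 and 3085 (MRV), and NC1 was again the high array: the difference of -0.008 became 0.60 without it. ACE, the enzyme that makes angiotensin II, read 113 and 132 (NC) against 117 and 122 (MRV). ENPEP, an aminopeptidase that degrades it, read 381 and 119 (NC) against 149.8 and 146 (MRV), and AGTRAP, which binds the receptor, read 118 and 119 (NC) against 129 and 119 (MRV). For AGT, ACE, ENPEP and AGTRAP the arrays of MRV and NC overlapped or touched.

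Immune and cell cycle lists had medians slightly above that of all genes. Of 20 interferon-induced genes, 2 were higher and 0 lower without overlap. RSAD2, an antiviral enzyme, read 48.9 and 88.7 (NC) against 85.7 and 122 (MRV), GBP1, an interferon-induced GTPase, read 341 and 269 (NC) against 352 and 335 (MRV), and the immunoproteasome gene PSMB8 read 252 and 167 (NC) against 170.0 and 172 (MRV), all with overlap. Of 16 cytokine genes, 3 were higher and 0 lower. Among these 3, CCL5 read 67.4 and 54.4 (NC) against 71.4 and 71.8 (MRV). CCL5 reached the mean of 61.4 needed for testing only through its MRV arrays. TNFRSF1A was higher by only 0.06. CCL2, which attracts monocytes, read 285 and 143 (NC), 198 and 233 (MR) and 289 and 361 (MRV). The chemokine gene CCL21 read 239 and 119 (NC) against 123 and 109.6 (MRV), and the chemokine receptor gene CXCR4 read 291 and 47.4 (NC) against 31.1 and 58.5 (MRV), both high on NC1. Of 18 genes of antigen presentation, 1 was higher and 1 lower. SLA-DMA, which loads peptides onto class II molecules, read 678 and 610.4 (NC) against 573 and 537 (MRV), with 0.097 for its other probe set, and CIITA, the class II activator, read 88.8 and 98.3 (NC) against 104 and 104 (MRV). Of 11 cell cycle genes, 2 were higher and 2 lower (18.2% each). Beside CCNG2, CDKN1B, an inhibitor of cyclin-dependent kinases, read 619 and 529.8 (NC), 649.7 and 596 (MR) and 829 and 764 (MRV), with MRV above all other arrays. GADD45B, a stress-induced growth inhibitor, read 257 and 284 (NC) against 208 and 255 (MRV). The medians were 0.024, 0.034, 0.042 and 0.056 in the order given, all smaller than 0.1.

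**Figure D5:**
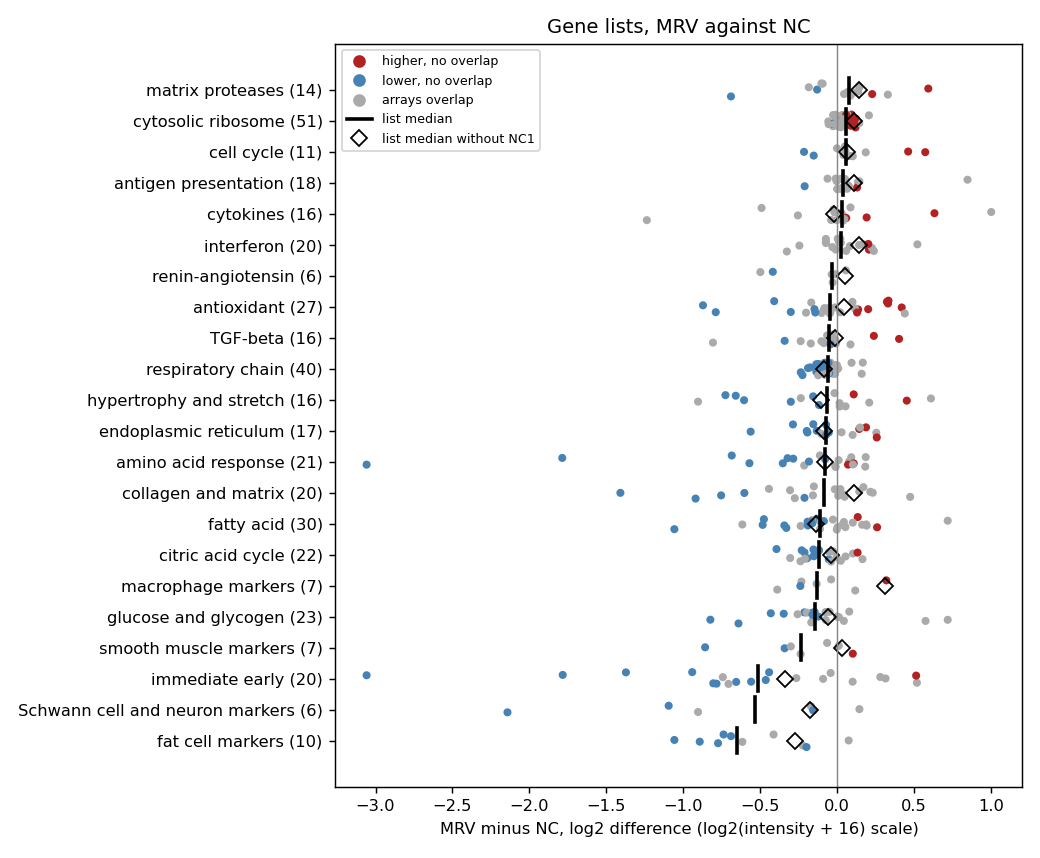
Log2 difference, MRV minus NC, of each measured gene in 22 lists, with the number of genes in brackets, red points higher and blue points lower without overlap, a bar at the list's median and a diamond at the median without NC1. The fat cell, Schwann cell and neuron, and immediate early lists lie furthest below 0, and the diamonds of the fat cell and nerve lists sit nearer to 0.

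The remaining 16 lists with at least 5 measured genes had medians from -0.13 to 0.016. They include genes of the sarcomere, calcium handling, ion channels, proteasome, heat shock, autophagy, the circadian clock and hypoxia. In 10 lists fewer than 5 genes were measured.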

How the data were processed

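Total RNA of 6 left atria was hybridised, 1 animal per array, to a porcine Affymetrix array. The deposited values are linear intensities that the authors normalized. Both MAS5 and RMA stand in the submitters' processing notes, which do not tell which of them gave these values. The platform annotation gave 10069 of 23999 probe sets 1 gene symbol, 198 several and 13732 none. Probe sets under the 40th percentile of the mean (61.4) were left out, which kept 14400. Values were taken as log2(intensity + 16) and fitted in 1 limma model (version 3.58.1, R 4.3.3) of all 6 arrays, with Benjamini-Hochberg adjustment over the 14400. A gene was its brightest probe set with 1 symbol (5408 genes).

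Named were the 12 genes each way with the smallest p among those without overlap and a log2 difference of at least 0.5, the 8 each way with the largest difference, the leading 3 of each described list, and genes given with the comparison. Members, lists and rules were chosen with earlier results of these data known. Of 113 named genes, 27 were added after their values were seen. On simulated data with 200 changed of 14400 probe sets, the MRV minus NC fit recovered 56.1% of those changed by a log2 of 1 and 87.4% by 2, with 7.1 false calls per draw over 10 draws. The simulated noise was drawn independently for each probe set and array, so no array stood apart as NC1 did. These rates therefore do not tell what share of real changes the fit finds in the atria. The alternatives were other pseudocounts, filters and scalings, fewer arrays, covariates and a replicate block.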

Additional observations from a re-analysis of the deposited data

How the results depend on the processing

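No probe set passed the adjusted threshold under any of the 17 alternatives, with the smallest limma adjusted p between 0.0555 and 0.672. The 762 probe sets with an unadjusted p under 0.05 became 1232 with no filter and 448 with the actin ratio as covariate, and ranged from 494 to 2063 on leaving out 1 array. The 86 probe sets 2-fold apart became 47 with a pseudocount of 64 and 57 with the filter at the 60th percentile, and ranged from 86 to 470 on leaving out 1 array, reaching 179 without MRV1, 167 without MRV2 and 470 without NC2. The 8 lists whose median lay at least 0.1 from that of all genes became 5 with a pseudocount of 64 and ranged from 8 to 15 on leaving out 1 array. The low ends of 86 probe sets and 8 lists came from leaving out an MR array, which does not enter the MRV and NC values. With only 1 array left in NC or MRV, lack of overlap is easier to reach. Those 2-fold counts cannot be compared with the main one. The cause of the other changes was not tested.

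Of 113 named genes, 97 kept their sign under every alternative run. A gene without overlap between MRV and NC cannot change sign when 1 array is left out, and many genes were named for lack of overlap. The count therefore partly restates the choice of genes. Among the genes whose sign turned, all but ATP2A2 had overlapping arrays. With the 28S signal as covariate the difference became 0.48 for AGT, -0.055 for B2M, -0.001 for COL1A2, 0.070 for ENPEP and -0.034 for PTGES3. With the actin ratio it became 0.67 for AGT and 0.003 for ACTA2, and with quantile normalization 0.028 for AGT and -0.025 for ATP2A2. On leaving out 1 array it ran from -0.13 to 0.074 for ACE, -0.62 to 0.60 for AGT, -0.071 to 0.49 for ANKRD1, -0.21 to 1.91 for B2M, -1.05 to 0.27 for CD163 and -0.10 to 0.20 for COL1A2. On the same basis it ran from -1.28 to 0.28 for ENPEP, -0.055 to 0.77 for KCNE1, -0.71 to 1.83 for MYL2, -0.076 to 0.11 for NPPB, -0.52 to 0.032 for PSMB8, -0.054 to 0.60 for PTGES3, -0.20 to 0.013 for SLN and -1.09 to 0.43 for TNNT1. For AGT, ANKRD1, B2M, COL1A2, ENPEP, PSMB8 and PTGES3 the sign turned without NC1.

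The replicate numbers were shared between groups, but the correlation of same-numbered deviations was 0.34 for NC and MR, 0.20 for NC and MRV and 0.019 for MR and MRV, so they were not taken to pair animals. The 28S control was higher on replicate 2 in each group: 117 and 468 (NC), 187 and 280 (MR) and 341 and 559 (MRV). The labels do not say whether the numbers mark a batch, and this was not tested beyond the block below. With the replicate block 0 probe sets passed the adjusted threshold, 940 had an unadjusted p under 0.05, and 8 lists and 86 probe sets stayed past their limits. The number of arrays, 2 per group, limits the precision of all values.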
